A study of Mus musculus with 5 samples.

Results

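Cholesterol synthesis and lipogenesis were examined through 32 genes, 20 of sterol synthesis (17 enzymes and 3 regulators) and 12 of fatty acid synthesis, elongation and desaturation. They were taken by symbol, for their known roles, from the 46983 genes of a table of read counts. Earlier results of these data were known at that point, so comparisons of these genes with all genes are descriptive. All 32 were among the 16436 genes with enough counts to be tested. The libraries came from mouse Kupffer cells, the resident macrophages of the liver sinusoids, of 2 genotypes. In all, 3 samples were ID3+/- (heterozygous, replicates 1 to 3), 2 samples were ID3-/- (knockout, replicates 2 and 3), and no sample was wild type, so every library came from cells with at least 1 mutant ID3 allele. Id3 is an inhibitor without a DNA-binding region of its own, which pairs with E proteins so that they cannot bind their sites. The comparison asked which transcripts differ between Kupffer cells that keep 1 copy of Id3 and cells that have none. Not given in the sources used here were the way the allele was made, the cells in which it acts, and the age and treatment of the mice. The column names of the table carry a "3w" with no explanation in the labels. The labels do not say that samples of a genotype came from separate animals, which means that the p-values speak only to how far these samples scatter, and that scatter may be technical.

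Both pathways start from acetyl-CoA. The sterol branch builds mevalonate, joins isoprene units into squalene, closes the ring to give lanosterol and trims it to cholesterol. The fatty acid branch carboxylates acetyl-CoA to malonyl-CoA, builds palmitate on fatty acid synthase, and then lengthens and desaturates the chain. Transcription of both is driven by the SREBP family, membrane-bound factors that Scap escorts from the endoplasmic reticulum to the Golgi when sterols are low and that Insig proteins hold back when sterols are high; the sterol receptor LXR adds to the drive on the fatty acid branch. Macrophages use the products for membranes and lipid mediators. Hepatocytes, which surround Kupffer cells in the liver, run both pathways too.

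The libraries held 74823374 to 80944135 counts on genes. Id3 itself was at 229, 221 and 256 CPM (gene counts scaled to a common library size, TMM-normalised, here and below) in the heterozygous libraries and at 1.01 and 1.42 CPM in the knockout libraries, so each library matched its genotype. The 14 Kupffer cell markers summed to between 68794 and 74728 CPM in the heterozygous and to 82833 and 75394 CPM in the knockout libraries, and 3 of them rose (Marco, C1qb and C1qc) and 1 fell (Cd163). The 20 hepatocyte markers summed to between 28137 and 33481 CPM in the heterozygous libraries but to 5922 CPM in knockout replicate 2 and 13421 CPM in knockout replicate 3, and 17 of the 20 fell. The 12 neutrophil markers summed to between 163 and 186 CPM against 604 and 293 CPM, with 6 higher, although Mpo and Elane were at 0.22 CPM or less everywhere. Mmp9 and Csf3r, at means of 98.7 and 67.5 CPM, made up most of the heterozygous sum (mean 175 CPM). Ngp, Ltf and Camp were at 78.3, 40.5 and 17.6 CPM in knockout replicate 2 but at 0.47, 0 and 0.05 CPM in knockout replicate 3. Endothelial markers (1466 to 1727 CPM against 1275 and 1210 CPM) and stellate cell markers (122 to 134 CPM against 75.6 and 77.05 CPM) were also lower in sum. Markers counted as risen, fallen or higher had an adjusted p under 0.05 (edgeR, described below). Over all genes tested 16.4% did, 10.0% lower and 6.41% higher. No gene of these lists was at 0 in all libraries. In RNA from many cells, fewer cells of a type and less RNA per cell cannot be told apart.

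Promoters were read from RefSeq (GRCm38.p6) as the 250 bases before each annotated start, for the 26 of the 32 genes that had an entry. They are shown because the genes are known to answer to common factors, and 5 follow in gene orientation, with the letters of the motifs searched in capitals. Cyp51 lies at chr5:4104698-4104947 on the minus strand, Insig2 (the farthest upstream of its 3 starts) at chr1:121332590-121332839 on the minus strand, Fasn at chr11:120824548-120824797 on the minus strand, Acacb at chr5:114165268-114165517 on the plus strand and Hmgcs1 at chr13:119690101-119690350 on the plus strand.
Cyp51: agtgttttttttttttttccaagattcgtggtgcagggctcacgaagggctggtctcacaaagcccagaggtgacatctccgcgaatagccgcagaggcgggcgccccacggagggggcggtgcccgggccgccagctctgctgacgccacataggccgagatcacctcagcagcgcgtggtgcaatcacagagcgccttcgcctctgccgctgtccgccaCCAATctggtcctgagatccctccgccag
Insig2: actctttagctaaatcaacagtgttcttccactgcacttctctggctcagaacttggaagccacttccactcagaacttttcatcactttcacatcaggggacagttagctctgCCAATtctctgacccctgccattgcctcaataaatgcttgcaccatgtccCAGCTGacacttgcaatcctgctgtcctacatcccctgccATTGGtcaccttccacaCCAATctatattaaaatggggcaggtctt
Fasn: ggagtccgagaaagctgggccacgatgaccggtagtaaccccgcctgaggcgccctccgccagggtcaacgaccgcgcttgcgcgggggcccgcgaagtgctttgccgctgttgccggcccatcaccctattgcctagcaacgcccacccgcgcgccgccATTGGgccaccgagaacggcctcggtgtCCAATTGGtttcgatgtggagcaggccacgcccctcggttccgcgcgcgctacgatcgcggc
Acacb: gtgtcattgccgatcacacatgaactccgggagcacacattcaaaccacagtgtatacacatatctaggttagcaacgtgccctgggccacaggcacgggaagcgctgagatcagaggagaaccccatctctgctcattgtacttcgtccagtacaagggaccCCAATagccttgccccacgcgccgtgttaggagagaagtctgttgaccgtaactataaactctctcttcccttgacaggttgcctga
Hmgcs1: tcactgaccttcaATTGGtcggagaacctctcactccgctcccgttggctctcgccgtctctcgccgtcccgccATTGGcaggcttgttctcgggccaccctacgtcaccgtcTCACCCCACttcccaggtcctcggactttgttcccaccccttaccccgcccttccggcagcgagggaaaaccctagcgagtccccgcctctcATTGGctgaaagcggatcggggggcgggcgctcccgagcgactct
The CCAAT box bound by NF-Y, a factor that works beside the SREBP family, was present on either strand in the promoters of 16 of 17 sterol genes (all but Scap) and 5 of 9 fatty acid genes (Acss2, Me1, Acacb, Fasn and Elovl5), against 37.5% of all genes with a promoter entry. In the Fasn promoter 2 of these boxes overlap on opposite strands. The sterol element letters TCACNCCAC were found only at Hmgcs1 among the 26 genes, as TCACCCCAC, 137 bases before the start, and in 1.22% of all genes. The E boxes CAGCTG and CACCTG, which E proteins bind, were found in 4 genes each (CAGCTG in Idi1, Msmo1, Dhcr7 and Insig2, CACCTG in Pmvk, Lss, Insig2 and Me1), against 14.7% and 19.4% of all genes. The LXR-type repeat, AGGTCA written again after 4 bases, was in none of the 26 and in 0.0148% of all genes. Each motif was searched on both strands, and a match is a description of the letters, not of a bound site.

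Fatty acid genes were lower in the knockout cells across several steps, while the levels of Acly, Scd2 and Fads1 overlapped between genotypes. Of the 12 genes, 6 fell (Acss2, Me1, Acacb, Fasn, Scd1 and Fads2), 0 rose and 6 did not pass. The threshold was an adjusted p of 0.05 (edgeR's quasi-likelihood test, Benjamini-Hochberg adjustment over every gene tested, 3 libraries against 2), and log2 fold changes are given ± SE. An unadjusted p under 0.05 was reached by 8 of the 12, against 33.5% of all genes tested. Over all genes tested, 16.4% passed, with 10.0% lower and 6.41% higher. The median log2 fold change (knockout minus heterozygous) was -0.97 over the 12 genes and -0.02 over all genes. In 9 of the 12 the libraries of the genotypes were fully apart, each time with the knockout lower, against 51.5% of all genes tested (26.9% with the knockout lower). The 6 synthesis genes, Acly included, overlapped in sum, at 1033, 960 and 1150 CPM in the heterozygous and 1125 and 792 CPM in the knockout libraries. The 6 desaturation and elongation genes did not, at 752, 718 and 681 CPM against 532 and 514 CPM.

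**Figure D1:**
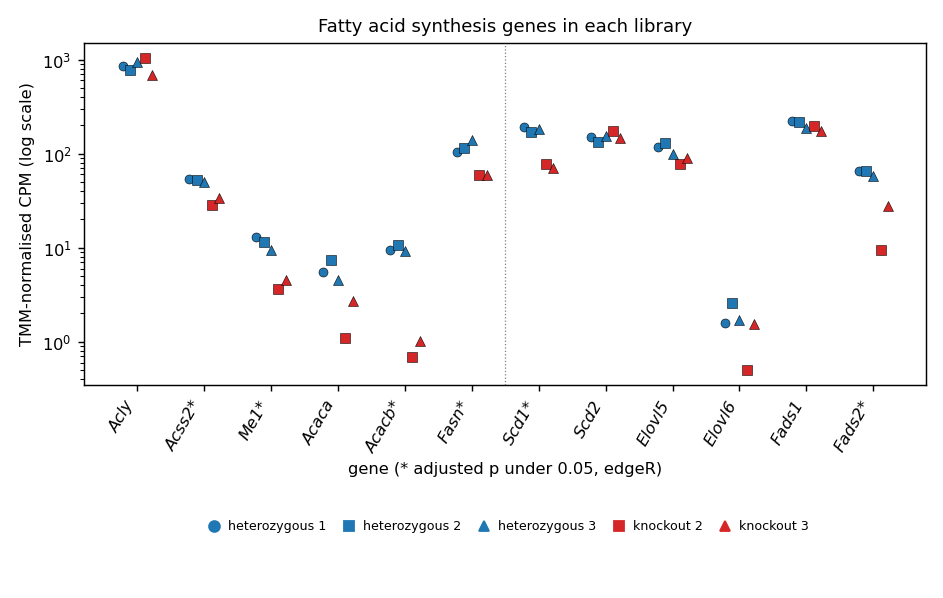
TMM-normalised CPM (log axis) of the 12 fatty acid genes, 1 point per library, blue for the 3 heterozygous and red for the 2 knockout libraries; the dotted line separates synthesis from desaturation and elongation, and a star marks an adjusted p under 0.05 in edgeR. Acacb, Scd1 and Fasn lie below the heterozygous points in both knockout libraries, whereas Acly, Scd2 and Fads1 overlap.

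Of the genes that supply acetyl-CoA and reducing power, Acss2 and Me1 fell. Acly, ATP citrate lyase, which makes acetyl-CoA from citrate, had the highest level per kilobase of the 32 genes (192 CPM per kb in the heterozygous cells), at 847, 765 and 937 CPM in the heterozygous and 1033 and 689.9 CPM in the knockout libraries. Its knockout values lay on either side of the heterozygous ones, and the log2 fold change was 0.02 ± 0.18 (SE, edgeR adjusted p = 0.958). Acss2, which makes acetyl-CoA from acetate, was at 53.5, 51.8 and 50.4 CPM and at 28.7 and 34.0 CPM. The groups were apart, and Acss2 fell by 0.73 ± 0.12 on the log2 scale (SE, edgeR adjusted p = 0.0165). Me1, the cytosolic malic enzyme, a source of NADPH for fatty acid synthesis, was at 13.1, 11.4 and 9.49 CPM and at 3.62 and 4.52 CPM. It fell by 1.48 ± 0.23 on the log2 scale (SE, edgeR adjusted p = 0.0152), to 35.96% of the heterozygous mean. Of the 50-base stretches of its transcript, 32.8% also occur in transcripts of other genes, so part of its reads may have gone uncounted. The calls for Acss2 and Me1 were lost without heterozygous replicate 1, heterozygous replicate 2 or knockout replicate 2 (edgeR adjusted p between 0.0623 and 0.0665 for Acss2 and between 0.0589 and 0.0629 for Me1).

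Of the 32 genes, Acacb had the lowest fold change. It encodes acetyl-CoA carboxylase 2, the mitochondrial form, whose malonyl-CoA restrains fatty acid import for oxidation. Its level was 9.37, 10.6 and 9.32 CPM in the heterozygous libraries (770, 839 and 679 counts) and 0.690 and 1.01 CPM in the knockout libraries (52 and 78 counts). Both knockout libraries were thus far under every heterozygous one, with a mean at 8.68% of the heterozygous one. Acacb fell by 3.52 ± 0.27 on the log2 scale (SE, edgeR adjusted p = 0.00369). It also passed whichever 1 of the 5 libraries was left out (edgeR adjusted p from 0.00300 to 0.0262). Acaca, the cytosolic carboxylase that commits acetyl-CoA to fatty acid synthesis, was at 5.49, 7.34 and 4.54 CPM and at 1.09 and 2.74 CPM. The groups were apart, but Acaca did not pass (log2 fold change -1.60 ± 0.46, SE, edgeR adjusted p = 0.0631). It passed in DESeq2 and limma-voom (adjusted p = 0.00384 and 0.0425), in edgeR with a filter of 1 CPM in 2 samples (adjusted p = 0.0357) and in edgeR without knockout replicate 3 (-2.40, adjusted p = 0.0256). Reads for Acaca may have been counted only in part, since 52.6% of its 50-base stretches recur in the gene model Gm5182. Fasn, fatty acid synthase, was at 105, 114 and 139.6 CPM and at 58.7 and 59.8 CPM. The knockout libraries lay close together, at 49.6% of the heterozygous mean, and Fasn fell by 1.01 ± 0.14 on the log2 scale (SE, edgeR adjusted p = 0.0122). That call was lost by a small margin without heterozygous replicate 2 or knockout replicate 2 (edgeR adjusted p = 0.0519 and 0.0505), at log2 fold changes of -1.04 and -0.999.

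Of the stearoyl-CoA desaturases, which put the first double bond into saturated fatty acids, Scd1 fell and Scd2 did not pass. Scd1 was at 191, 170.3 and 180.5 CPM in the heterozygous and 77.5 and 70.8 CPM in the knockout libraries. The groups were far apart, and Scd1 fell by 1.28 ± 0.10 on the log2 scale (SE, edgeR adjusted p = 0.00369), to 41.0% of the heterozygous mean. It also passed whichever 1 of the 5 libraries was left out (edgeR adjusted p from 0.00641 to 0.0250). Scd2, its neighbour on chromosome 19, was at 152, 132 and 154 CPM and at 172 and 148 CPM. Here the groups overlapped, and the log2 fold change was 0.14 ± 0.12 (SE, edgeR adjusted p = 0.467). Per kilobase of the longest coding transcript, Scd1 was above Scd2 in the heterozygous cells, at 37.4 ± 2.14 against 26.7 ± 2.21 CPM per kb (SD, n = 3). In the knockout cells it was below, at 15.3 ± 0.973 against 29.4 ± 3.14 CPM per kb (SD, n = 2). The transcripts share 4.66% of the 50-base stretches of Scd1, mainly among the Scd genes.

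Of the desaturases of polyunsaturated fatty acids, Fads2 fell and Fads1 did not pass. Fads1, the delta-5 desaturase, was at 223, 217 and 189 CPM and at 194 and 175 CPM, which overlapped (log2 fold change -0.18 ± 0.11, SE, edgeR adjusted p = 0.293). Fads2, the delta-6 desaturase, was at 65.7, 65.7 and 58.3 CPM in the heterozygous libraries and at 9.36 CPM in knockout replicate 2 and 27.9 CPM in knockout replicate 3. The knockout libraries were both lower but nearly 3 times apart, with a ratio of 2.98. Fads2 fell by 1.76 ± 0.43 on the log2 scale (SE, edgeR adjusted p = 0.0420). The call was lost without any 1 heterozygous library (edgeR adjusted p from 0.0748 to 0.115), with library size as the only scaling (0.0503) and with offsets for transcript length and GC content (0.0561). Its log2 fold change was -1.18 without knockout replicate 2 and -2.74 without knockout replicate 3. Of the elongases, Elovl5, which extends polyunsaturated chains, was at 119, 131 and 98.0 CPM and at 77.7 and 90.7 CPM. Its groups were apart but it did not pass (log2 fold change -0.46 ± 0.15, SE, edgeR adjusted p = 0.0850). It passed in DESeq2 (adjusted p = 0.0259) and in edgeR without heterozygous replicate 3 (adjusted p = 0.0410). Elovl6, which extends palmitate to stearate, was low, at 1.57, 2.56 and 1.69 CPM and at 0.504 and 1.52 CPM, and did not pass (edgeR adjusted p = 0.295).

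Ratios of related genes within a library depend on how libraries are scaled to each other only through the 0.5 CPM added to each gene. That addition shrinks ratios at low levels, as for Acacb in the knockout libraries (0.690 and 1.01 CPM). The log2 ratio of Scd1 to Scd2 was 0.33, 0.37 and 0.23 in heterozygous libraries against -1.15 and -1.06 in knockout libraries, a difference of -1.41. That of Acaca to Acacb was -0.72, -0.51 and -0.96 against 0.42 and 1.10, a difference of 1.49. That of Fads1 to Fads2 was 1.76, 1.72 and 1.69 against 4.30 and 2.63, a difference of 1.74. In these pairs the genotypes did not overlap. The ratio of Elovl6 to Elovl5 overlapped, with a difference of -0.30. Two-sided exact permutation tests gave p = 0.1 for each of the non-overlapping pairs, Insig1 to Insig2 (below) included, and p = 0.5 for the elongases. After adjustment over the 5 pairs these were 0.125 and 0.5, and 0.1 is the smallest p that 3 samples against 2 allow.

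Sterol genes showed no common direction. Of the 20, 2 fell (Cyp51 and Insig2), 0 rose and 18 did not pass, beside the 16.4% of all genes tested that passed. An unadjusted p under 0.05 was reached by 5 of the 20, against 33.5% of all genes tested. The median log2 fold change was 0.00, with 10 genes above and 10 below 0, and libraries were fully apart in 11 of the 20 (7 with the knockout lower), against 51.5% of all genes. The summed level of the 17 enzymes was 439.9, 525 and 516 CPM in the heterozygous and 397 and 503 CPM in the knockout libraries, which overlapped.

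**Figure D2:**
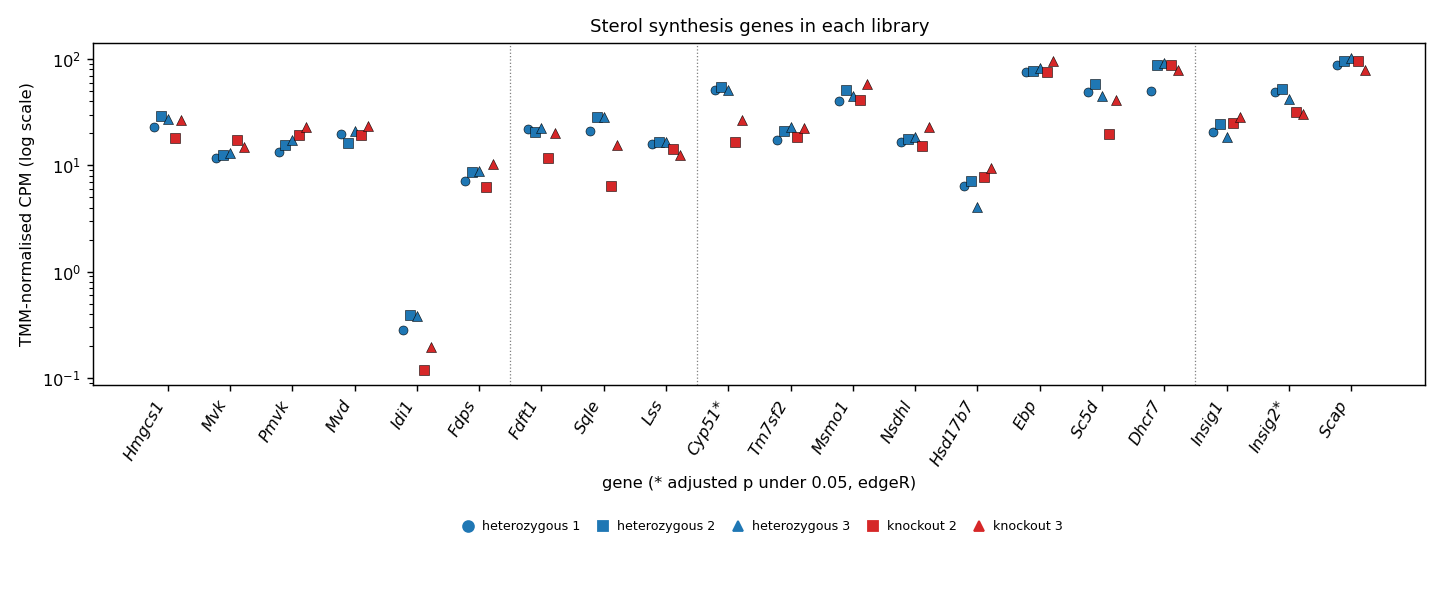
TMM-normalised CPM (log axis) of the 20 sterol genes in pathway order, 1 point per library, blue for the 3 heterozygous and red for the 2 knockout libraries; dotted lines separate the steps up to farnesyl diphosphate, those to lanosterol, those after it and the regulators, and a star marks an adjusted p under 0.05 in edgeR. Cyp51 and Insig2 have both knockout points under the heterozygous ones, and Sqle and Sc5d have knockout replicate 2 well under replicate 3.

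The mevalonate steps gave 0 of 6 genes that passed in edgeR, beside 16.4% of all genes tested. An unadjusted p under 0.05 was reached by 2, beside 33.5%, and 1 (Pmvk) passed in DESeq2, beside 27.7%. Hmgcs1, HMG-CoA synthase, was at 23.2, 29.4 and 27.0 CPM and at 18.1 and 26.7 CPM. The kinases Mvk and Pmvk both lay higher in the knockout libraries without overlap: Mvk at 11.8, 12.5 and 13.1 against 17.3 and 14.8 CPM, and Pmvk at 13.3, 15.6 and 17.3 against 19.4 and 22.9 CPM. Neither passed (log2 fold changes 0.37 ± 0.15 and 0.46 ± 0.17, SE, edgeR adjusted p = 0.143 and 0.110). Mvd, the decarboxylase, and Fdps, farnesyl diphosphate synthase, had log2 fold changes of 0.17 and -0.01. Idi1, the isopentenyl diphosphate isomerase, had only 9 to 31 counts per library. Fdps and Idi1 may be counted only in part, since 86.4% and 30.5% of their 50-base stretches recur in other gene models.

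The 3 genes of the steps from farnesyl diphosphate to lanosterol lay lower, and the genotypes did not overlap in any of them. Over all genes tested, the genotypes did not overlap in 51.5%, with the knockout lower in 26.9%. Of the 3 genes, 0 passed in edgeR, beside 16.4% of all genes tested, and 1 had an unadjusted p under 0.05, beside 33.5%. In DESeq2 1 passed, beside 27.7%. Sqle, squalene epoxidase, a rate-limiting step of the late pathway, was at 21.2, 28.5 and 28.3 CPM and at 6.46 CPM in knockout replicate 2 and 15.7 CPM in knockout replicate 3. Its log2 fold change was -1.23 ± 0.38 (SE, edgeR adjusted p = 0.0752). It passed in DESeq2 and limma-voom (adjusted p = 0.00348 and 0.0437), and in edgeR without knockout replicate 3. Fdft1, squalene synthase, was at 22.0, 20.8 and 22.6 CPM and at 11.8 and 20.3 CPM. Its value is uncertain, because its exons overlap those of Ctsb, an abundant gene of macrophages, over 18.3% of their length on the opposite strand. Lss, which closes the sterol ring, was at 15.9, 16.6 and 16.8 CPM and at 14.1 and 12.6 CPM.

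After lanosterol, 1 of 8 genes fell, beside 10.0% of all genes tested. Cyp51, the lanosterol demethylase, was at 51.0, 54.7 and 50.7 CPM in the heterozygous and 16.7 and 26.7 CPM in the knockout libraries. The heterozygous libraries were tightly grouped, and both knockout libraries were lower. Cyp51 fell by 1.26 ± 0.21 on the log2 scale (SE, edgeR adjusted p = 0.0171), to 41.7% of the heterozygous mean. Without heterozygous replicate 1 or 2 the call was lost (edgeR adjusted p = 0.0581 and 0.0665) at nearly the same value. With offsets for transcript length and GC content the log2 fold change was -0.83, just short of passing (edgeR adjusted p = 0.0506). Sc5d, the lathosterol desaturase, was at 48.5, 58.2 and 45.0 CPM and at 19.5 CPM in knockout replicate 2 and 41.1 CPM in knockout replicate 3, and did not pass (edgeR adjusted p = 0.158). It passed in DESeq2 (adjusted p = 0.0476) and in edgeR without knockout replicate 3 (adjusted p = 0.0173).

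The other 7 genes after lanosterol did not pass. Msmo1, the methyl sterol oxidase that acts soon after Cyp51, was at 40.1, 51.6 and 44.5 CPM and at 41.0 and 58.4 CPM. Ebp, the sterol isomerase, was the most abundant sterol enzyme per kilobase, at 45.0 ± 2.37 CPM per kb (SD, n = 3) in the heterozygous and 49.7 ± 8.38 CPM per kb (SD, n = 2) in the knockout cells. Dhcr7, which reduces 7-dehydrocholesterol to cholesterol, was at 50.3, 88.6 and 92.1 CPM and at 88.9 and 78.1 CPM, with heterozygous replicate 1 apart from the others. In all 3 genes the genotypes overlapped, and none passed in edgeR (adjusted p = 0.683, 0.496 and 0.807, with 0 of the 3 at an unadjusted p under 0.05) or in DESeq2. Tm7sf2 and Nsdhl, a sterol reductase and a sterol dehydrogenase, also overlapped (log2 fold changes 0.01 and 0.11). Hsd17b7, a keto-sterol reductase, was at 6.44, 7.19 and 4.02 CPM and at 7.72 and 9.41 CPM. It did not pass (0.54 ± 0.29, SE, edgeR adjusted p = 0.249) but did with length and GC offsets, at 1.17 (edgeR adjusted p = 0.0302).

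Of the 3 regulators, 1 fell, beside 10.0% of all genes tested. Insig2, which retains the Scap complex in the endoplasmic reticulum, was at 49.2, 52.0 and 42.2 CPM in the heterozygous and 31.7 and 30.2 CPM in the knockout libraries. The knockout libraries lay close together and lay under all heterozygous ones, and Insig2 fell by 0.63 ± 0.13 on the log2 scale (SE, edgeR adjusted p = 0.0268). The call held without heterozygous replicate 3 and was lost without any of the other 4 libraries (edgeR adjusted p from 0.0833 to 0.0961). With length and GC offsets the log2 fold change was -0.26 (edgeR adjusted p = 0.203). Insig1, the isoform that is itself a target of the SREBP family, was at 20.5, 24.4 and 18.5 CPM and at 24.8 and 28.5 CPM, and did not pass (log2 fold change 0.33 ± 0.16, SE, edgeR adjusted p = 0.207). The log2 ratio of Insig1 to Insig2 was -1.25, -1.07 and -1.16 against -0.35 and -0.08, without overlap and with a difference of 0.94. Scap was at 88.2, 96.5 and 101.8 CPM and at 96.2 and 79.6 CPM, which overlapped.

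Each other setting gives its member counts beside the share of all genes that passed under it. DESeq2 gave 5 sterol and 8 fatty acid genes beside 27.7% of all genes, and a filter of 1 CPM in 2 samples gave 3 and 7 beside 28.6%. Limma-voom gave 3 and 7 beside 17.5%. RLE scaling, upper-quartile scaling and robust fitting each gave 2 and 6, beside 16.3%, 17.9% and 16.4%, as did testing without a filter, beside 8.85%. Scaling by library size gave 2 and 5 beside 16.7%, and length and GC offsets 1 and 5 beside 8.44%. Without heterozygous replicates 1, 2 and 3 in turn, 0 and 3, 0 and 2, and 2 and 6 genes passed in edgeR beside 2.9%, 2.09% and 15.7% of all genes. Without knockout replicate 2 there were 1 and 3 beside 5.15%, and without knockout replicate 3 there were 4 and 7 beside 12.9%. A block for the replicate number left 0 and 0 in edgeR beside 0.00608% (3 and 7 at an unadjusted p under 0.05). In every one of these settings the fatty acid genes that passed were lower in the knockout cells.

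**Figure D3:**
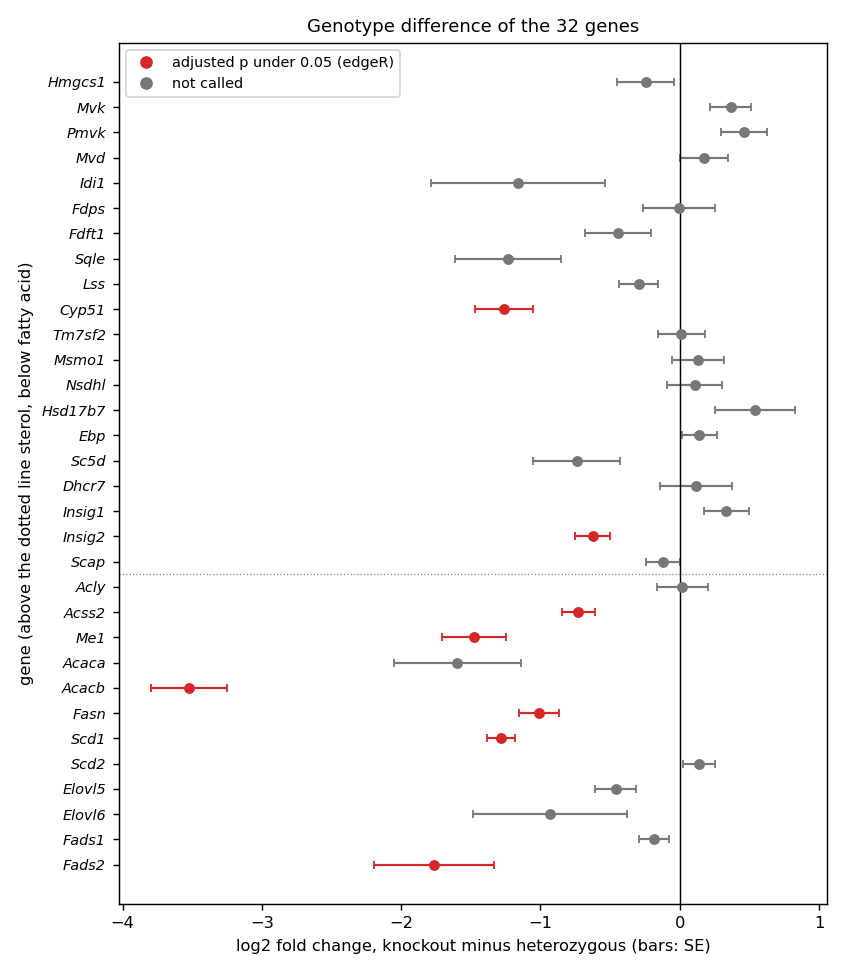
Log2 fold change (knockout minus heterozygous) of the 32 genes with the SE as bars, sterol genes in pathway order above the dotted line and fatty acid genes below it, red where edgeR's adjusted p was under 0.05. The 6 red fatty acid genes run from -0.73 (Acss2) to -3.52 (Acacb), and the 2 red sterol genes are Cyp51 (-1.26) and Insig2 (-0.63).

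The hepatocyte markers were not only lower in the knockout cells but also differed between the knockout libraries, and the 32 genes were read against that. All 20 hepatocyte markers were higher in knockout replicate 3 than in replicate 2, with ratios from 1.19 to 3.60 and a median of 2.29. Some lipid genes that lay lower in the knockout libraries had ratios in the same range. They were 3.03 for Elovl6, 2.98 for Fads2, 2.52 for Acaca, 2.42 for Sqle, 2.10 for Sc5d, 1.60 for Cyp51 and 1.46 for Acacb. Such ratios were not confined to lower genes. Among genes whose levels overlapped between genotypes, they were 1.64 for Fdps, 1.42 for Msmo1 and 1.27 for Ebp. Other lipid genes were nearly level between the knockout libraries while lower than in the heterozygous ones, with ratios of 0.914 for Scd1, 1.02 for Fasn and 0.953 for Insig2. Acss2 and Me1, at 1.19 and 1.25, were near the lowest marker ratio. Of the sterol genes, 15 of 20 were higher in knockout replicate 3, and of the fatty acid genes 8 of 12, against 50.7% of all genes tested. With the mean level of the hepatocyte markers as a covariate, 0 of the 16436 genes passed in edgeR and 1791 had an unadjusted p under 0.05. In that fit the log2 fold change was -1.53 for Scd1, -1.03 for Fasn, -2.61 for Acacb, 0.59 for Fads2 and 0.61 for Acaca. It was -0.66 ± 0.36 for Insig2, 0.71 ± 0.48 for Sqle and -0.18 ± 0.27 for Cyp51 (SE). The genotypes do not overlap in the summed markers, so its share and that of genotype cannot be told apart, and the part of hepatocyte RNA in these results was not tested.

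**Figure D4:**
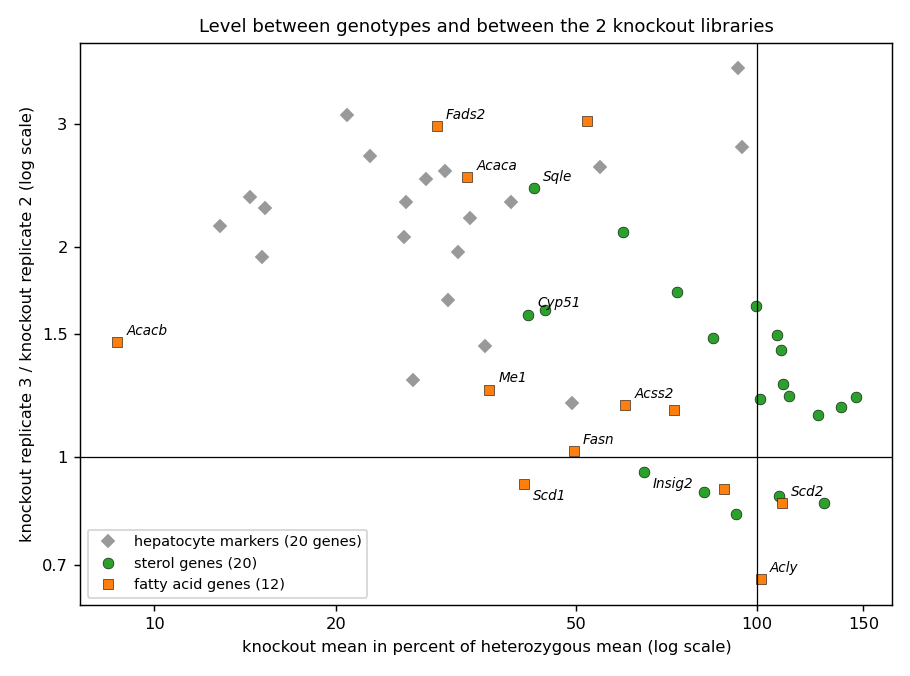
For each gene, the knockout mean in percent of the heterozygous mean (x, log axis) and the ratio of knockout replicate 3 to replicate 2 (y, log axis), with sterol genes as green circles, fatty acid genes as orange squares and hepatocyte markers as grey diamonds. All hepatocyte markers lie above a ratio of 1, as do Fads2, Acaca and Sqle, whereas Scd1 and Insig2 lie under it and Fasn just above it.

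Other genes of the 2 pathways were taken from lists chosen for their known roles, with earlier results of these data known. Of 18 further sterol genes, 2 fell and 1 rose, and 15 did not pass, with a median log2 fold change of -0.15. Over all genes tested, 16.4% passed. Ggps1, which makes geranylgeranyl diphosphate from the same isoprene units, was at 6.17, 5.87 and 5.97 CPM and at 2.75 and 2.64 CPM, and fell by 1.16 ± 0.21 on the log2 scale (SE, edgeR adjusted p = 0.0209). Pgrmc1, a membrane haem protein that binds Cyp51 and other cytochromes, was at 80.2, 80.8 and 56.3 CPM and at 36.04 and 42.2 CPM, and fell by 0.89 ± 0.19 (SE, edgeR adjusted p = 0.0300). Npc2 and Soat1, which move cholesterol out of lysosomes and esterify it, had log2 fold changes of 0.26 and -0.25 and did not pass. All 3 calls in this list were lost without heterozygous replicate 1 or 2 or knockout replicate 2.

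Of 27 further fatty acid genes, 25 were tested, 8 fell, 4 rose and 13 did not pass, with a median log2 fold change of -0.26. The share that passed over all genes tested was 16.4%. Of the 4 acyl-CoA synthetases in the list, which activate fatty acids, Acsl1 and Acsl5 fell, while Acsl3 and Acsl4 did not pass (edgeR adjusted p = 0.117 and 0.243). Acsl1 was at 117, 114 and 98.2 CPM and at 30.0 and 35.7 CPM, and fell by 1.74 ± 0.14 on the log2 scale (SE, edgeR adjusted p = 0.00369). Acsl5 was at 338, 356 and 329.5 CPM and at 238 and 224 CPM, and fell by 0.56 ± 0.09 (SE, edgeR adjusted p = 0.0147). Mlxipl, the carbohydrate-responsive factor ChREBP, which drives lipogenic genes in hepatocytes, was at 5.90, 8.11 and 6.87 CPM and at 2.51 and 3.02 CPM, and fell by 1.33 ± 0.25 (SE, edgeR adjusted p = 0.0220). Srebf1, which encodes the SREBP forms best known for driving fatty acid synthesis, was at 113, 102 and 121 CPM and at 173 and 154 CPM. Both knockout libraries were higher, and Srebf1 rose by a log2 fold change of 0.55 ± 0.11 (SE, edgeR adjusted p = 0.0260). With offsets for transcript length and GC content Srebf1 did not pass, and 0 of the 27 further genes passed as higher. Elovl3, an elongase of saturated chains, had 346, 220 and 235 counts against 14 and 0, and passed with the knockout lower (edgeR adjusted p = 0.0286). Tecr, the reductase that ends each elongation cycle, was at 127, 128 and 147 CPM and at 191 and 183 CPM, and rose by a log2 fold change of 0.48 ± 0.10 (SE, edgeR adjusted p = 0.0289). Slc25a1, which exports citrate from mitochondria for Acly, was at 89.2, 91.0 and 88.4 CPM and at 109 and 94.6 CPM and did not pass (edgeR adjusted p = 0.247). Hsd17b12, the keto reductase of elongation, did not pass either (log2 fold change -0.30, edgeR adjusted p = 0.155). Without heterozygous replicate 1 or 2 only Acsl1 of these genes passed, and 5 passed without knockout replicate 2.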

How the data were processed

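Kupffer cell RNA of 5 samples was analysed. The authors deposited 1 table of unnormalised read counts by gene for the 5 samples. Per the submitters' processing notes, HTSeq 0.5.4, DESeq 1.18.0, R 3.1.2 and build mm9 were used. Not given in the sources used here were aligner, annotation and strand setting. Libraries were made with a SMART-seq V4 kit, per the labels' protocols. Rows that name no gene were left out. They made up 47.0% to 48.6% of all entries in the heterozygous and 40.0% to 42.8% in the knockout libraries, and reads with several alignments 38.3% to 41.0% and 32.3% to 34.1% of the aligned total, so genes with near-identical copies are counted in part.

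Genotypes were compared over the 5 samples without covariates, using edgeR 4.0.16 under R 4.3.3 (genes kept by filterByExpr, scaling by TMM, quasi-likelihood test, 3 residual and 3.26 prior degrees of freedom). SEs were derived from the F statistic. Isozyme ratios used log2 of CPM plus 0.5. Length, GC content and shared 50-base stretches came from GENCODE M21 (longest coding transcript), to which 46488 of the 46983 IDs matched. Alternatives were DESeq2 1.42.0, limma-voom (limma 3.58.1), RLE, upper-quartile and library-size scaling, 2 other filters, robust fitting, a replicate block, length and GC offsets, a hepatocyte covariate and leaving out each sample. The tests were tried on simulated data. Genes described were those that passed, the up to 4 highest others in each list of the 32, both genes of each pair, and of further genes up to 6 that passed and 2 others per list. Other members were named by role with their values seen. Some genes this rule takes are not reported here. Members and lists were chosen with earlier results of these data known.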

Additional observations from a re-analysis of the deposited data

How the results depend on the processing

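The fatty acid count of 6 stayed between 5 and 8 genes, all lower, under DESeq2, limma-voom, the other scalings and filters, robust fitting and length and GC offsets. The sterol count of 2 was 5 in DESeq2 and 1 with length and GC offsets (Hsd17b7, higher). The count over all genes was 4557 in DESeq2 and 1388 with length and GC offsets. The counts of further genes were 6 of 18 and 15 of 27 in DESeq2, and 0 of 18 and 5 of 27 with length and GC offsets. With the hepatocyte covariate all counts were 0. Upper-quartile scaling split the calls into 1443 higher and 1499 lower, against 1054 and 1644.

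Leaving out each library gave 335 to 2540 calls over all genes, 0 to 4 among the sterol and 2 to 7 among the fatty acid genes, and 0 to 3 and 1 to 8 among the further sterol and fatty acid genes. The replicate numbers do not pair the samples by any label, and deviations of same-numbered samples correlated at -0.0256 (replicate 2) and -0.0618 (replicate 3). With a replicate block, which leaves few degrees of freedom, 1 gene passed in all and 0 in each of the 4 lists (3 sterol and 7 fatty acid genes at an unadjusted p under 0.05), and the log2 fold change was -0.10 for Tm7sf2, -0.12 for Dhcr7 and -0.00427 for Acly.

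Of the 8 genes that passed, Fads2 alone changed sign, to 0.59 with the hepatocyte covariate. The same covariate turned Hmgcs1 to 0.69, Fdps to 1.11, Fdft1 to 0.72, Sqle to 0.71, Sc5d to 1.00, Dhcr7 to -0.15, Acly to -1.02, Acaca to 0.61, Scd2 to -0.28, Elovl5 to 0.00382 and Elovl6 to 1.64. Length and GC offsets turned Hmgcs1 to 0.32, Mvd to -0.0734 and Tm7sf2 to -0.22. Fdps, near 0, was 0.0146 in DESeq2, 0.0145 with RLE, 0.0605 with upper-quartile scaling and 0.0199 with the 1 CPM filter, and Acly was -0.0045 in limma-voom. Over the fits without 1 library, the sign also changed for these, none of which passed: Acly from -0.30 to 0.29, Dhcr7 from -0.11 to 0.27, Ebp from -0.0303 to 0.30, the Elovl6 to Elovl5 difference from -0.70 to 0.0934, Fdps from -0.40 to 0.31, Hmgcs1 from -0.54 to 0.00915, Msmo1 from -0.14 to 0.36, Nsdhl from -0.20 to 0.37, Scap from -0.26 to 0.0219, Tm7sf2 from -0.12 to 0.14. The Elovl6 to Elovl5 difference turned to 0.22 with a pseudocount of 5. The causes of these changes were not tested. Of the 32 genes, Idi1 had the lowest counts, at 9 to 31 per library.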

Other observations

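No sex of the mice is stated in the labels. Xist, the RNA that silences one X chromosome in females, was at 0 to 0.0531 CPM. The Y-linked genes Ddx3y, Kdm5d, Eif2s3y and Uty were present in all 5 libraries, with Eif2s3y at 8.61, 15.3 and 13.1 CPM in the heterozygous and 8.18 and 4.57 CPM in the knockout libraries. None of the 4 passed in edgeR (2 had an unadjusted p under 0.05).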
